A study of Phragmites australis with 7 samples.

Results

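The genes described here are 259 of the 285 features annotated on the B chromosome of the common reed, *Phragmites australis*, out of 42095 features in the whole gene table. They were chosen by name alone: every feature named PaChr24 belongs, except numbers 10, 16, 24, 32, 43, 82, 83, 89, 93, 101, 113, 117, 119, 155, 157, 158, 171, 212, 218, 223, 240, 245, 256, 261 and 262 and the joined feature 278_279. The number after the dot gives the order of the genes along the chromosome and runs to 286, so PaChr24.14 and PaChr24.15 are neighbours. A plant can live without its B chromosomes, and individuals of one species may have none, one or several of them. Pieces and copies of ordinary chromosomal genes are commonly found on them, and in grasses such as rye and maize they are known for transmission drive, by which they are passed on more often than Mendelian segregation predicts. Near-identical copies elsewhere in the genome can share reads with the genes below, so individual levels are uncertain to that extent.

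The 6 single-cell libraries each came from 1 untreated plant grown in a common garden and held at 25 °C before harvest, from 5 to 22 pooled buds. The EU libraries (EU60, EU78 and EU620) represent the European population, and the invasive libraries (NAint61, NAint113 and NAint191) the invasive population of North America. The tissue label is shoot, while the dissection text names the rhizome tip. Batch 1 of the labels holds EU60, EU78 and NAint113, batch 2 holds EU620 and NAint191, and batch 3 holds only NAint61, so batch 3 cannot be told apart from that library. Each population is represented by 3 plants, and p-values measure the spread between these plants. The number of B chromosomes per plant is not measured by these libraries, so more copies of a gene and more RNA from each copy cannot be told apart. In sums over all cells, fewer cells of a type and less RNA per cell likewise cannot be told apart.

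After filtering, 57798 of 67194 cells remained, with 6478 to 13189 per library. The retained cells held 74783700 to 123287000 unique molecular identifiers (UMIs, each standing for 1 captured RNA molecule) per library and a median of 5971 to 11613 per cell. Pairs of libraries shared 0.196% to 0.451% of the cell barcodes of the smaller library. Levels are given as CPM, the UMIs of a gene scaled to the same total in every library, and at this depth 3 UMIs over a whole population, the limit that a count of 0 allows, correspond to 0.00882 CPM in the EU and 0.0114 CPM in the invasive population. These limits cover counting error only. Where 3 values follow each other below, they are given in the order EU60, EU78, EU620 for the EU and NAint61, NAint113, NAint191 for the invasive libraries.

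Most of the remaining B chromosome genes were weakly expressed or not detected in the buds. At least 1 UMI was found for 147 members in the 6 libraries together, whereas 112 members (43.2%) had none in any. Only 56.8% of the members were thus detected anywhere, against 81.2% to 94.5% of the features of each of the other 24 chromosomes.
The detected genes were very unequal: 38 members held 90% of the 36887 UMIs, and the 10 most abundant held 53.2%. Counting the silent members, 166 had fewer than 10 UMIs in the 6 libraries together.

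More members were detected in the invasive than in the EU plants. EU60 had UMIs for 68 members, EU78 for 66 and EU620 for 65, whereas NAint61 had UMIs for 107, NAint113 for 114 and NAint191 for 109. The groups did not overlap, at 66.3 ± 1.53 members in the EU and 110 ± 3.61 in the invasive libraries (mean ± SD, n = 3 each), a ratio of 1.66. The two-sided exact permutation test over libraries gave p = 0.1, the smallest value that 3 libraries against 3 can give. The ratio was 1.97 when 3 UMIs were required, 2.12 when 10 were required, and 1.78 after every library was thinned to the total of the smallest. In percent, the members reached 25.1% to 44.0% per library, below the 65.6% to 89.3% of the other chromosomes in all 6 libraries.

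The 147 detected members fell into a shared set and a smaller set seen in the invasive plants alone. UMIs were found in both populations for 81 members, and in all 6 libraries for 33. Another 53 members had UMIs in invasive libraries only, and 30 of these were present in all 3 invasive plants and at 0 in all 3 EU plants. Of all 38181 detected features, 2.15% had UMIs in invasive libraries only, and 0.202% in all 3 of them and in no EU library. A further 13 of the 147 detected members had UMIs in EU libraries only, none with more than 5 UMIs in total. Of all 38181 detected features, 3.08% had UMIs in EU libraries only, also a smaller share than among the members.

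**Figure D1:**
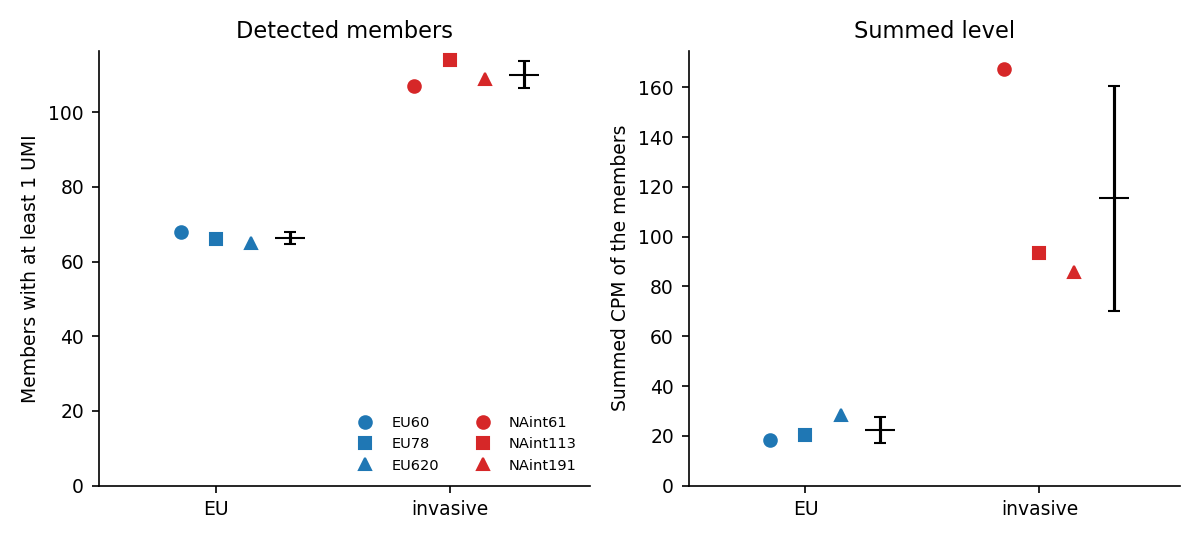
Remaining B chromosome genes in the 6 single-cell libraries: number of members with at least 1 UMI and their summed level in CPM, 1 point per library with the mean and SD of the 3 libraries of each population. The EU libraries sit between 65 and 68 members and the invasive libraries between 107 and 114, and the summed level is 18.4 to 28.4 CPM against 85.6 to 167 CPM.

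Along the chromosome, silent and expressed genes were interspersed. Counted over the members alone, the 112 silent members formed 58 runs, most of them short. The longest run held 8 members, numbers 191 to 198, and includes the sweep-listed PaChr24.197 described below. Runs of 6 members spanned numbers 176 to 181, 235 to 241 and 269 to 274. Runs of 5 spanned 31 to 36, 69 to 73 and 81 to 87. Some numbers within these runs belong to the genes left out. PaChr24.240 lies within 235 to 241 and PaChr24.82 within 81 to 87. The paper reports both as raised in the invasive population in nearly all clusters, so neither run is an unbroken silent stretch of the chromosome. These 7 runs together held 41 members. After a detected member the next member was detected in 61.0% of cases, and after a silent member in 51.8%, over 258 consecutive pairs.

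**Figure D2:**
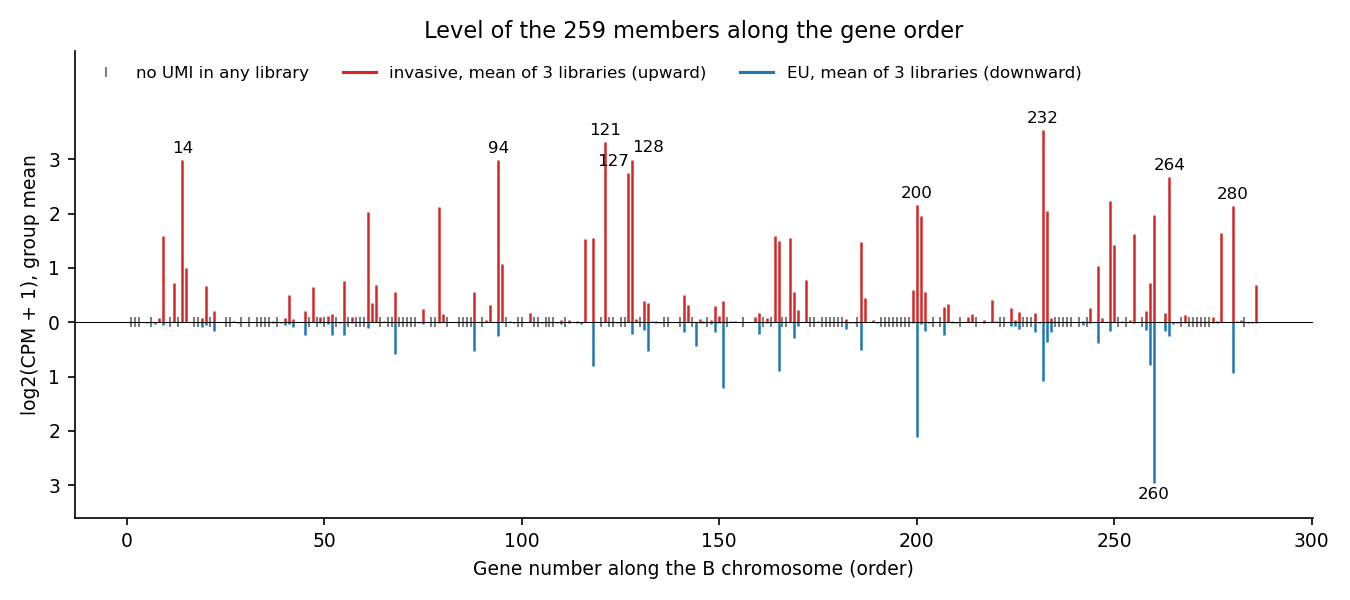
Level of each remaining B chromosome gene against its number along the chromosome, as log2(CPM + 1) of the mean of the 3 invasive libraries (upwards, red) and of the 3 EU libraries (downwards, blue), with grey ticks for genes without a UMI. The longest run of ticks spans numbers 191 to 198, and most tall invasive bars (PaChr24.121, PaChr24.128, PaChr24.94) face short or absent EU bars.

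Expression was concentrated in a few stretches, each dominated by 1 to 3 genes. In windows of 20 numbers, the stretch from 121 to 140 held 16.73% of the members' mean CPM, the stretch from 241 to 260 held 15%, and the stretch from 221 to 240 held 11.7%. The first leaned on 3 genes, with 39.0% from PaChr24.121, 31.0% from PaChr24.128 and 24.7% from PaChr24.127, while PaChr24.260 gave 46.8% of the second and PaChr24.232 gave 72.7% of the third. The stretch from 21 to 40 held only 0.321%.

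The difference between the populations also varied by stretch. Numbers 1 to 20 summed to 0.154, 0.154 and 0.160 CPM in the EU and to 19.389, 4.87 and 9.70 CPM in the invasive libraries, a ratio of means of 72.5. Numbers 121 to 140 summed to 0.488, 0.844 and 0.819 CPM in the EU and 32.2, 23.63 and 11.18 CPM in the invasive libraries, a ratio of 31.1. Numbers 141 to 160 went the other way on average, with 1.47, 1.10 and 3.89 CPM in the EU and 2.07, 1.42 and 1.34 CPM in the invasive libraries (ratio 0.748), but there the groups overlapped. They overlapped also at 21 to 40, 181 to 200 and 241 to 260, and in the other windows every invasive library lay above every EU library.

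**Figure D3:**
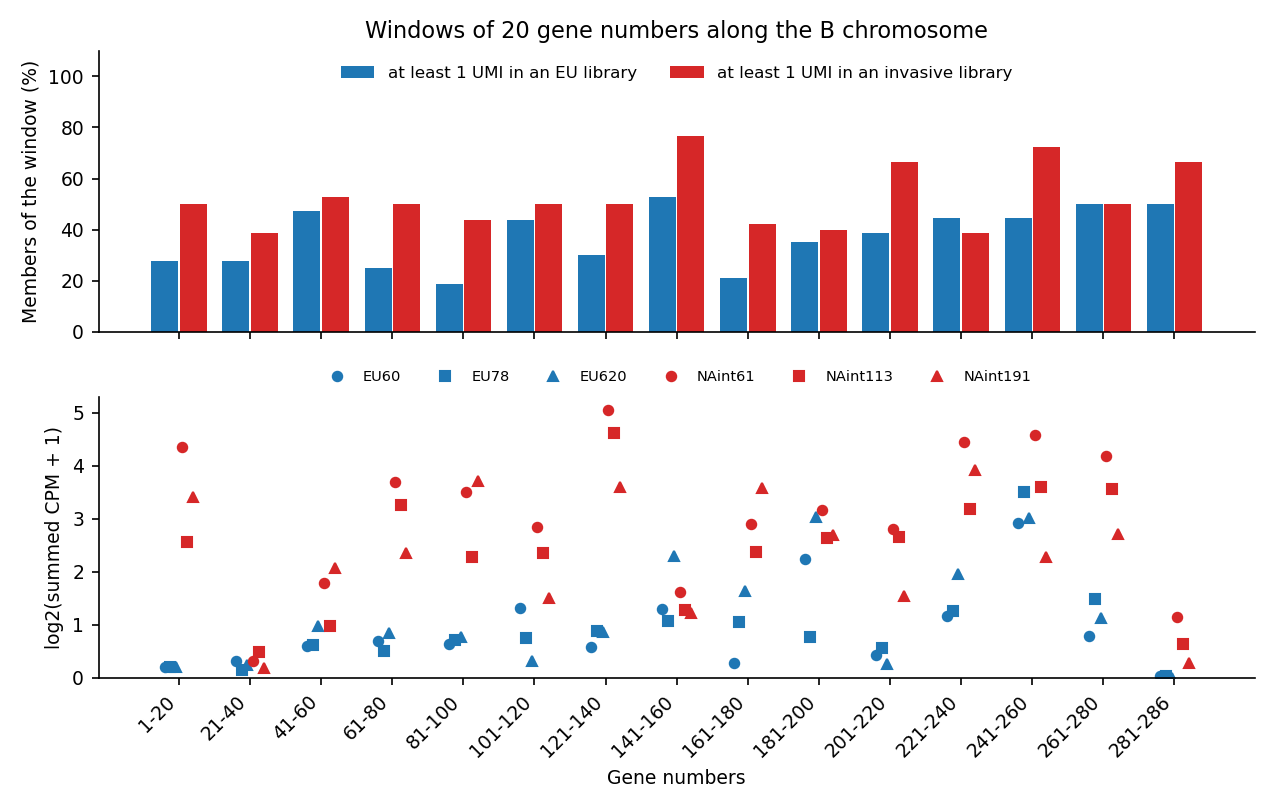
Remaining B chromosome genes in windows of 20 numbers along the chromosome: the upper panel gives the percent of members of each window with at least 1 UMI in any EU or any invasive library, and the lower panel the summed level as log2(CPM + 1), with 1 point per library. The invasive points lie above the EU points except in the windows starting at 21, 141, 181 and 241, where they overlap.

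Adjacent genes had weakly similar levels within a library. The correlation of log2(CPM + 1) between each member and the next (Pearson's r across 258 pairs of genes, which are not independent replicates) was 0.13, 0.24 and -0.02 in the EU libraries. The invasive libraries gave 0.22, 0.22 and 0.21. On the other 24 chromosomes the same value ranged from 0.04 to 0.21 over the 6 libraries, so only EU78, NAint61 and NAint113 lay above all other chromosomes of the same library, and EU620 lay below all of them.

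Summed over the members, expression was higher in the invasive plants. The members summed to 18.4, 20.343 and 28.4 CPM in the EU and to 167, 93.3 and 85.6 CPM in the invasive libraries. No invasive library overlapped the EU range, and the means of 22.39 ± 5.29 and 115 ± 45.02 CPM (SD, n = 3 each) differed by a ratio of 5.2 (two-sided exact permutation p = 0.1, the smallest possible). The libraries of batch 1 alone had a ratio of 4.81 and those of batch 2 a ratio of 3.02, while batch 3 holds an invasive library only. Leaving out each member in turn gave ratios from 4.75 to 7.18, with 4.92 without PaChr24.232, the most abundant member. The summed level of every other chromosome had a ratio between 0.917 and 1.09.

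Gene by gene, the level of 58 of the 147 detected members (39.5%) was higher in every invasive library than in any EU library, compared with 3.44% of all 38181 detected features. For 3 members, PaChr24.39, PaChr24.144 and PaChr24.151, every invasive library was below every EU library, which was so for 1034 of the 38181 features. Each gene was then tested. Of the members, 81 reached 10 counts in at least 1 library and were tested, of which 40 passed this filter only through invasive libraries and 5 only through EU libraries, so the tested set leans towards the invasive population. The quasi-likelihood test of edgeR, with mean reads per cell as covariate and Benjamini-Hochberg adjustment over 33266 genes, called 0 of the 81 (threshold: adjusted p below 0.05, with a log2 fold change beyond 1 either way), where 0.018% of all genes were called higher and 0.00301% lower. At an unadjusted p under 0.05 the same test had 43 members higher and 1 lower in the invasive libraries, against 5.8% and 4.18% of all genes. DESeq2 on the same sums and covariate called 32 members higher, against 1.61% of all genes, and PaChr24.144 lower, against 1.2%. With the median UMIs per cell as covariate in place of mean reads, edgeR called 20 members higher, against 7.08% of all genes.

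The most abundant member by mean CPM was PaChr24.232, at 0.951, 0.333 and 2.08 CPM in the EU and at 15, 4.36 and 12.4 CPM in the invasive libraries. Its populations did not overlap, and its pooled level was 9.49-fold higher in the invasive population (counting interval 8.496 to 10.6). The fitted log2 fold change was 3.73 ± 0.54 (SE), with an adjusted p of 0.33 in edgeR and 1.6e-08 in DESeq2.

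PaChr24.121, PaChr24.127 and PaChr24.128 lie close together and were all high in the invasive plants. PaChr24.121 had 0 UMIs in each EU library and 13.56, 8.54 and 4.84 CPM in the invasive libraries, at least 994-fold higher in the invasive population when its EU count is set at the limit of 3 UMIs over the group. PaChr24.127 was likewise at 0 in the EU and at 8.29, 7.10 and 1.72 CPM in the invasive libraries, at least 645-fold higher. PaChr24.128 was at 0.163, 0.333 and 0 CPM in the EU and 9.47, 7.56 and 3.89 CPM in the invasive libraries, 39.2-fold higher by pooled level. In all 3 genes the order of the invasive plants was the same, with NAint61 highest and NAint191 lowest.

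PaChr24.94 and its neighbour PaChr24.95 had another order, with NAint191 highest and NAint113 lowest. PaChr24.94 was at 0.171, 0.235 and 0.160 CPM in the EU and 8.79, 2.226 and 9.66 CPM in the invasive libraries, 34.1-fold higher by pooled level (edgeR adjusted p = 0.26, DESeq2 adjusted p = 8.6e-11). PaChr24.95 had no UMI in the EU and 1.217, 0.537 and 1.54 CPM in the invasive libraries, at least 120-fold higher.

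PaChr24.264 and PaChr24.280 were higher in the invasive libraries but present in EU plants. PaChr24.264 was at 0.463, 0.0973 and 0 CPM in the EU and 9.40, 3.66 and 2.99 CPM in the invasive libraries. PaChr24.280 was at 0.103, 1.54 and 1.05 CPM against 5.34, 3.30 and 1.54 CPM, a pooled ratio of 3.66, and its highest EU and lowest invasive libraries nearly touched. Neither was called by edgeR (adjusted p = 0.49 and 0.55), and DESeq2 called PaChr24.264 (adjusted p = 0.00029) but not PaChr24.280 (adjusted p = 0.35).

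PaChr24.200 did not separate the populations. It was at 3.65, 0.681 and 5.58 CPM in the EU and 4.787, 2.44 and 3.154 CPM in the invasive libraries, a pooled ratio of 1.06 (counting interval 0.971 to 1.163), and the fitted log2 difference of 0.44 ± 0.63 (SE) leaves a wide range. Its neighbour PaChr24.201 had 7 UMIs in the 3 EU libraries together and 3.717, 3.89 and 1.03 CPM in the invasive libraries, 141-fold higher by pooled level (counting interval 68.2 to 353). Adjacent genes thus included both patterns.

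The share of members higher in every EU plant was close to that of all features. Every EU library lay above every invasive library for 3 of the 147 detected members, as for 1034 of all 38181 detected features. PaChr24.260, the second most abundant member, was higher in the EU by pooled level only. It had 527, 1059 and 708 UMIs in the EU and 478, 251 and 1 in the invasive libraries, a pooled ratio of 0.412. By CPM its groups overlapped at 4.51 in EU60 and 6.39 in NAint61. Among the 3 members without overlap, PaChr24.151 had 62, 81 and 279 UMIs in the EU against 34, 31 and 16, a pooled ratio of 0.248. PaChr24.144 had 49, 19 and 51 UMIs in the EU against 0, 0 and 1 (log2 fold change -5.93 ± 1.26, SE; edgeR adjusted p = 0.46, DESeq2 adjusted p = 0.0083). PaChr24.39 rested on 5 UMIs in all. By pooled level only, PaChr24.52, PaChr24.132, PaChr24.234 and PaChr24.259 were also higher in the EU. Their pooled ratios were 0.592, 0.620, 0.465 and 0.723, each with a counting interval below 1. These intervals do not cover the spread between plants. PaChr24.234 had UMIs in only 1 EU library, and 142 of the 147 invasive UMIs of PaChr24.259 came from NAint61.

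Some members were present in 1 plant and nearly absent from another of the same population. By a rule of at least 50 UMIs in 1 library and at most 1 in another, applied after the values were seen, there were 12 such contrasts in 10 genes. PaChr24.14 and its neighbour PaChr24.15 shared a pattern: PaChr24.14 had 1083 UMIs in NAint61, 0 in NAint113 and 543 in NAint191, and PaChr24.15 had 123, 0 and 118. Both were at 0 in all EU libraries, so this pair was seen in 2 of the 6 plants only.

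Other genes also varied by plant. PaChr24.165 had 0, 97 and 178 UMIs in the EU and 1, 0 and 471 in the invasive libraries. PaChr24.92 had 65 UMIs in NAint191 and 0 in the other 5 libraries, and its neighbour PaChr24.91 had 8 UMIs, all in NAint191. These genes were therefore highest in NAint191.

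PaChr24.259 and PaChr24.260 are neighbours that were both nearly absent from NAint191, with 1 UMI each, but PaChr24.259 was also at 0 in EU620, where PaChr24.260 had 708. PaChr24.88 had 26, 108 and 1 UMIs in the invasive libraries. The remaining 3 genes found by the rule, PaChr24.233, PaChr24.246 and PaChr24.264, were at 0 in 1 EU library and between 54 and 101 UMIs in another.

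Symbols were available for some of the 13 members that the study listed as lying under a selective sweep, a region where a favoured variant has reduced the variation around it, and symbols come from homologues in *Arabidopsis*. Of these 13 genes 7 were detected and 4 were tested. PaChr24.187 (GEX3, named for a protein expressed in gametes) had 0 UMIs in the EU and 38, 31 and 22 in the invasive libraries, at least 39.3-fold higher. PaChr24.173 (GEX2, which in *Arabidopsis* acts in the attachment of sperm to female gametes) had no UMI in any library. Also without a UMI were PaChr24.17 (VFB3, an F-box protein), PaChr24.18 (ATPD, the delta subunit of the chloroplast ATP synthase), PaChr24.174, PaChr24.177 (CRK8, a cysteine-rich receptor-like kinase) and PaChr24.197 (OEP80, a protein of the outer chloroplast envelope).

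The other detected genes of that list were low, and their populations overlapped. PaChr24.52 had 35, 13 and 11 UMIs in the EU and 10, 5 and 12 in the invasive libraries. PaChr24.230 had 14, 23 and 7 against 6, 11 and 16, and PaChr24.19 had 8, 10 and 4 against 2, 6 and 8. PaChr24.110 (CIP111) had 5, 4 and 0 UMIs against 4, 3 and 2, and PaChr24.183 and PaChr24.188 had 1 UMI each. None of the 4 tested genes of the list was called by edgeR, and DESeq2 called only PaChr24.187 (adjusted p = 0.00049), giving no adjusted p for PaChr24.19.

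Neighbouring genes were next compared cell by cell. For each pair of members the residual correlation across cells was computed after the expectation from cell depth and cluster had been removed, for pairs in which both genes had a UMI in at least 50 cells. NAint61 had 8 such adjacent pairs with a median r of 0.0190, NAint113 had 9 with a median of 0.00236, and NAint191 had 7 with a median of 0.0106. These values are close to 0, and in counts this sparse they are no evidence of co-expression within cells. The medians of pairs over 20 numbers apart were 0.00349, 0.000312 and 0.000447.

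Counting cells that held UMIs of both neighbours gave a similarly small difference. Over the adjacent pairs of NAint61, 327 pair-by-cell coincidences were seen where 308 were expected, a ratio of 1.06, and the ratio was 1.1591 in NAint113 and 1.106 in NAint191. Pairs 2 to 5 numbers apart had ratios of 0.835, 0.945 and 0.895, and adjacent pairs on other chromosomes 0.779, 0.931 and 0.879. The adjacent members thus lay slightly above both in all 3 invasive libraries, without a test. In the EU libraries too few adjacent pairs reached 50 cells, with 1 in EU60, 1 in EU78 and none in EU620.

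Among the pairs measurable in all 3 invasive libraries, PaChr24.94 and PaChr24.95 had the highest mean r, 0.0187, with 50 cells holding both against 39.0 expected. PaChr24.232 and PaChr24.233 had a mean r of 0.0148 and 132 cells against 126 expected. PaChr24.249 and PaChr24.250 had a mean r of 0.0127, but the ratio of observed to expected cells was 1.401 in NAint61 and 0.768 and 0.628 in NAint113 and NAint191, so the excess was that of 1 library. The ratio of PaChr24.127 and PaChr24.128 varied as widely, at 1.01, 1.203 and 0.583. The pair PaChr24.200 and PaChr24.201 had 32 cells against 35.7 expected. PaChr24.259 and PaChr24.260 and the pair PaChr24.164 and PaChr24.165 had a higher r, 0.0336 and 0.0237, in the single invasive library where they could be measured. PaChr24.259 and PaChr24.260 were also the pair measured in the EU, where r was -0.000621 in EU60 and -0.0141 in EU78, with 11 cells against 19.0 expected in the latter.

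**Figure D4:**
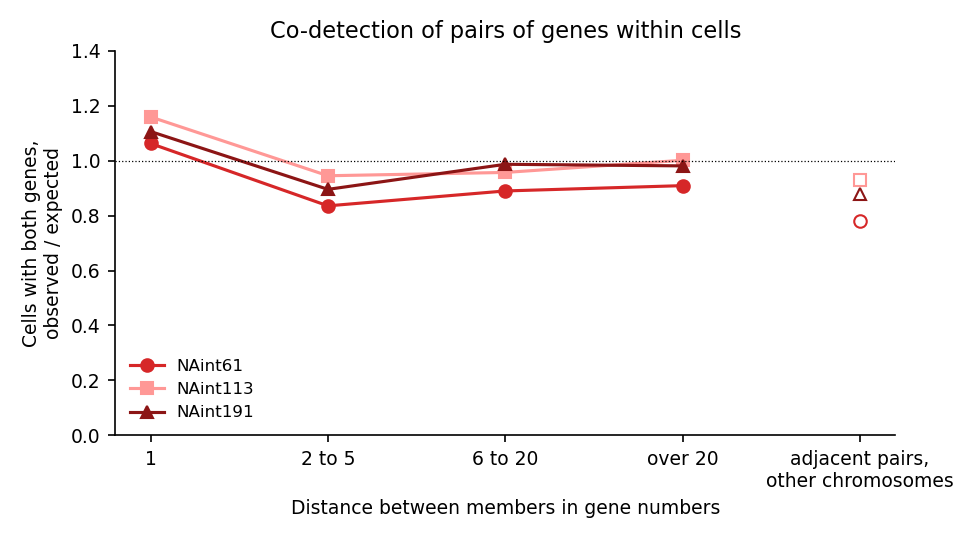
Cells with UMIs of both genes of a pair, as observed over expected from depth and cluster, by distance between the genes in numbers along the chromosome, for the 3 invasive libraries, with adjacent pairs of other chromosomes as open symbols. Adjacent pairs reach 1.06, 1.1591 and 1.106, and pairs 2 to 5 numbers apart 0.835, 0.945 and 0.895.

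Similarity of pattern was clearer over sums of cells than in single cells. Over 42 sums of 1 class in 1 library, log2 CPM of PaChr24.14 was most like that of PaChr24.15 (Pearson's r = 0.94, and 0.88 over the 21 invasive sums). PaChr24.121 was most like PaChr24.128 (r = 0.98, and 0.73 over the invasive sums), and PaChr24.232 most like PaChr24.94 (r = 0.91), which is far from it on the chromosome. Over the invasive sums the last value was 0.68, and PaChr24.232 was then more like PaChr24.15 (0.85) and PaChr24.14 (0.84). Likewise PaChr24.121 was then more like PaChr24.61 (0.87) and PaChr24.264 (0.77), both farther from it than PaChr24.128. The median r was 0.40 for 21 adjacent pairs and 0.24, 0.19 and 0.21 for pairs 2 to 5, 6 to 20 and over 20 numbers apart. Within the invasive sums alone these medians were 0.27, 0.19, 0.13 and 0.12. The sums share libraries, and the first set shares the population difference, so the values are descriptions.

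To compare cell types, cells were clustered without the B chromosome members and clusters were named by markers into 7 classes: dividing-like, epidermis-like, ground meristem-like, meristem-like, mesophyll-like, parenchyma-like and vascular-like cells. Clusters holding 8647 cells stayed unnamed. In plant shoots, meristem cells divide and found the organs, ground meristem gives rise to the parenchyma and mesophyll, the epidermis is the outer layer, and vascular cells carry water and sugars. The vascular-like class also holds clusters named as bundle sheath, of 5093 and 3221 cells, a type the study groups with vascular tissue. UMIs of the members were found in all 7 classes, although the share from free RNA was not estimated, and their summed CPM was higher in every invasive library than in any EU library in each of them. The ratio of means ran from 4.51 in ground meristem-like to 7.28 in meristem-like cells (exact permutation p = 0.1 in each, the smallest possible).

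By the mean of each population, levels were highest in parenchyma-like cells, at 27.8, 30.9 and 37.7 CPM in the EU and 234, 137 and 132 CPM in the invasive libraries. Vascular-like cells, the most numerous class, were at 15.49, 19.0 and 27.0 CPM and at 147, 80.2 and 77.1 CPM. Parenchyma-like cells were above vascular-like cells in each of the 6 libraries, but in EU60 dividing-like cells (33.3 CPM) and ground meristem-like cells (30.3 CPM) were higher still. However, 1 parenchyma-like cluster of 4049 cells had a median depth only 0.200 of that of its libraries. The other cluster of the class, of 1791 cells, matched markers of the cell type that the study left unclassified but grouped with parenchyma. Without the shallow cluster the summed levels were 20.102, 25.31 and 27.2 CPM in the EU and 157.7, 97.6 and 63.4 CPM in the invasive libraries. NAint191 then lay below its vascular-like cells (76.1 CPM without a shallow vascular-like cluster), and EU620 was level with them (27.3 CPM). Ground meristem-like cells without shallow clusters, at 26.9, 29.2 and 33.7 CPM in the EU and 194, 129 and 107 CPM in the invasive libraries, were then above parenchyma-like cells in each of the 6 libraries. The part of depth in this difference was not tested.

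Each class was then set against the mean of the other classes within libraries, for the 61 members that passed the filter among 31536 genes (edgeR, same thresholds). In parenchyma-like cells 15 members were higher and 1 lower, against 7.5% and 5% of all genes. In ground meristem-like cells 11 were higher and 1 lower, against 11% and 3.02%. Both classes include a cluster of low depth, and without such clusters 3 of 58 members were higher in parenchyma-like cells (PaChr24.88, PaChr24.186 and PaChr24.280, against 7.71% of all genes) and 10 in ground meristem-like cells (against 11%). The parenchyma-like cells are then the unclassified cluster alone. Without NAint61 the counts of higher members were 7 and 5, and without NAint113 the ground meristem-like count was 5.

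The other classes had fewer calls, near or below the share of all genes. Dividing-like cells had 3 members higher and 3 lower, against 26% of all genes in either direction. Meristem-like cells had 3 higher and 2 lower, against 3.81% and 3.46%. Epidermis-like cells had 1 each way, against 13% and 10.8%, mesophyll-like cells had 1 higher, against 14.2% in either direction. In vascular-like cells edgeR called 0 members, against 14.2%, with 1 member higher and 5 lower at an unadjusted p under 0.05, against 46.3% of all genes in either direction. A few genes nevertheless had a clear cell type pattern.

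PaChr24.164 had the largest change among the 3 members called higher in meristem-like cells. In meristem-like cells it reached 12.27, 5.001 and 17.9 CPM in the invasive libraries, and in vascular-like cells 2.196, 1.78 and 1.06 CPM. It had no UMI in the EU, so the pattern is that of the invasive plants. Its log2 fold change against the other classes was 2.7 ± 0.33 (SE, edgeR adjusted p = 3.8e-06), and it was called with each of the 6 libraries left out in turn. Of these, only the invasive libraries hold UMIs of PaChr24.164, so leaving out an EU library removes none of them.

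PaChr24.201 was higher in dividing-like and meristem-like cells, the classes of proliferating tissue. It reached 13.9, 12.98 and 8.46 CPM in dividing-like and 14.86, 12.5 and 3.89 CPM in meristem-like cells of the invasive libraries, against 2.85, 2.04 and 0.447 CPM in ground meristem-like cells. The log2 fold changes were 1.76 ± 0.31 and 1.70 ± 0.27 (SE, edgeR adjusted p = 1.8e-05 and 1.6e-05), and both calls held without any 1 library. Only 7 UMIs of PaChr24.201 came from the EU, so leaving out an EU library removed few of them. PaChr24.47 was also called higher in both classes (1.55 and 1.70), but lost the call when single invasive libraries were left out.

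PaChr24.116 was highest in mesophyll-like cells, the photosynthetic tissue. It was at 11.7, 7.78 and 1.26 CPM there and at 5.51, 1.53 and 0.201 CPM in vascular-like cells of the invasive libraries, again with no UMI in the EU. The log2 fold change was 2.64 ± 0.34 (SE, edgeR adjusted p = 3.0e-06). It was lower in meristem-like cells (-2.19 ± 0.62, adjusted p = 0.014), a call that was lost without NAint61 or NAint113.

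PaChr24.200 had a cell type pattern in both populations. In ground meristem-like cells it was at 11.17, 5.76 and 7.45 CPM in the EU and 10.44, 10.2 and 5.137 CPM in the invasive libraries, and in epidermis-like cells at 1.810, 0.444 and 4.121 CPM and 3.64, 0.869 and 2.40 CPM. The ground meristem-like level was higher in each of the 6 libraries. The log2 fold change was 1.79 ± 0.27 (SE, edgeR adjusted p = 2.6e-06), and its neighbour PaChr24.201 was lower in the same class (-1.11 ± 0.32, adjusted p = 0.0070), although that call was lost without NAint113 or NAint191 and without the shallow clusters.

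**Figure D5:**
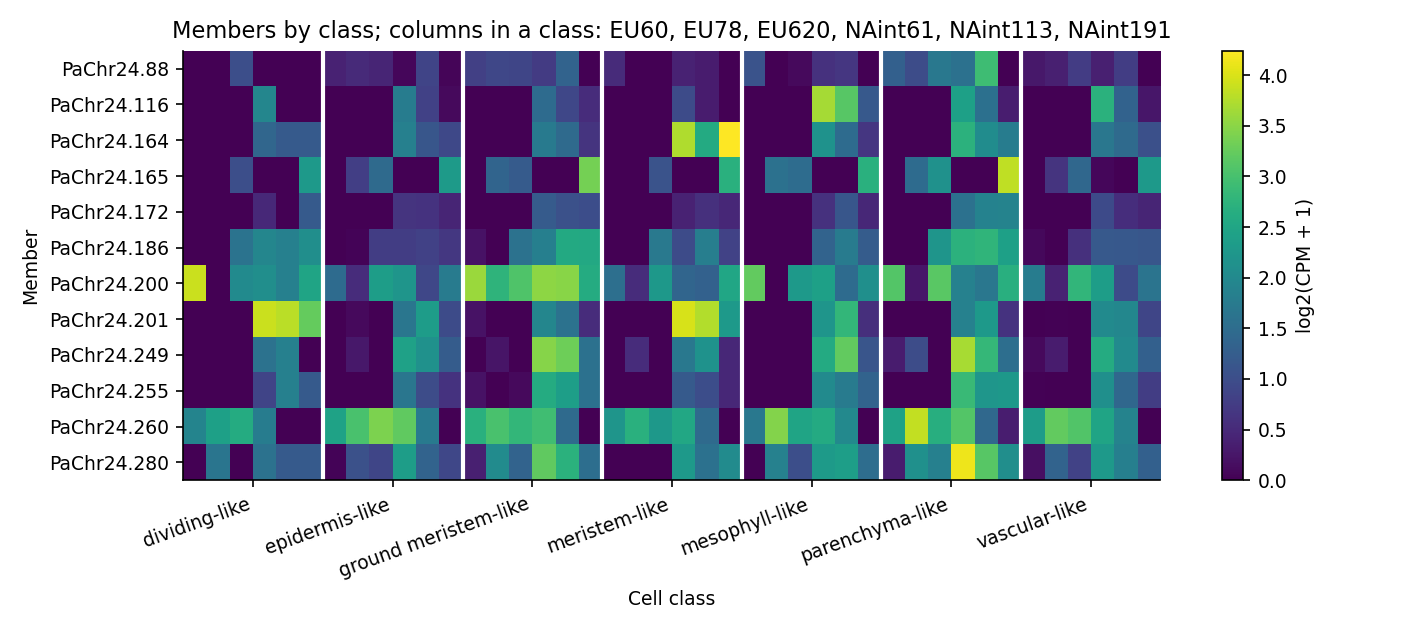
Level as log2(CPM + 1) of the 12 members whose call in a cell class held with each library left out in turn, with 1 row per member and, within each class, 1 column per library in the order EU60, EU78, EU620, NAint61, NAint113, NAint191. For members without a UMI in the EU, such as PaChr24.164 and PaChr24.116, only leaving out an invasive library removes any of their UMIs. PaChr24.164 is brightest in the invasive columns of meristem-like cells, PaChr24.116 in those of mesophyll-like cells, and PaChr24.200 is bright in ground meristem-like cells of both populations, although its brightest EU column is that of EU60 in dividing-like cells.

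PaChr24.88 was the parenchyma-like member that held best. It was at 1.48, 0.989 and 2.2381 CPM in the EU and 1.99, 6.60 and 0 CPM in the invasive libraries, with a log2 fold change of 2.59 ± 0.36 (SE, edgeR adjusted p = 3.9e-07) and of 1.95 without the shallow clusters (adjusted p = 0.0019). The latter value is that of the unclassified cluster, the only one of the class then left. The largest fitted differences in that class belonged to PaChr24.234 (2.87 ± 0.79) and PaChr24.219 (2.83 ± 0.54). The difference of PaChr24.234 was 0.77 (adjusted p = 0.69) without the shallow clusters and the call was lost without NAint61, while without EU620 the gene had too few counts to be tested. PaChr24.219 had too few counts to be tested without the shallow clusters or without NAint61. The remaining genes named by the rule were PaChr24.45 in dividing-like cells (2.35 ± 0.69), PaChr24.207 in epidermis-like cells (1.26 ± 0.43) and PaChr24.208 in ground meristem-like cells (1.86 ± 0.53). PaChr24.45 could not be tested without EU620, PaChr24.207 lost the call without NAint113 or NAint191, and PaChr24.208 lost it without NAint113 and could not be tested without NAint191.

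Within each class the populations were also compared gene by gene. edgeR called 0 members in each of the 7 classes, where it called 0.0293% of all genes in ground meristem-like, 0.0286% in parenchyma-like and 0.00325% in vascular-like cells, and 0% in the other 4 classes. At an unadjusted p under 0.05, the members higher in the invasive libraries were 9 of 12 tested in dividing-like cells (as were 807 of 19049 genes), 29 of 51 in epidermis-like (6.79% of all genes) and 31 of 43 in ground meristem-like cells (2.83%). They were 15 of 20 in meristem-like (6.02%), 20 of 34 in mesophyll-like (7.58%), 23 of 31 in parenchyma-like (5.27%) and 34 of 57 in vascular-like cells (5.33%). Most of the tested members had reached 10 counts only through invasive libraries, from 31 of 57 in vascular-like to 18 of 20 in meristem-like and 11 of 12 in dividing-like cells, so these counts are descriptions of a set that leans towards the invasive population. At that level 1 member was lower in vascular-like cells, against 3.77% of all genes, and none in the other classes. DESeq2 was not run by class.

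Whether the population difference itself varied between classes was tested by an interaction term. For members without a UMI in the EU, such as PaChr24.116 and PaChr24.164, this term could not decide, because they had no class pattern there. edgeR called 0 of the 61 members, as of all 31536 genes, and 2 members had an unadjusted p under 0.05, against 3% of all genes. They were PaChr24.186 and PaChr24.280, followed by PaChr24.22, PaChr24.169 and PaChr24.9, all with an edgeR adjusted p of 1. PaChr24.186 was at 0, 0 and 3.62 CPM in parenchyma-like cells of the EU and at 5.64, 5.87 and 4.34 CPM in the invasive libraries, and in epidermis-like cells at 0, 0.0261 and 0.704 CPM and at 0.708, 0.769 and 0.609 CPM. In both classes EU620 was the highest EU plant, and in epidermis-like cells it lay within the invasive range.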

How the data were processed

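RNA of single cells was measured in 6 plants of *Phragmites australis*, and of 1 further bud section of NAint61 by a spatial assay. The authors deposited raw UMI counts per gene and cell, made with Cell Ranger 8.0 and Scanpy per the processing notes, and raw counts of the section, none of them normalized. Their reads were mapped to a modified assembly with transferred gene models. Near-identical copies can share reads, and whether counting used strand is not given in the sources used here, so overlapping antisense genes cannot be told apart.

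The members and lists were chosen with earlier results of these data known. No gene function table or sequence was used, and the reference gene table matched none of the identifiers.

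Cells with fewer than 500 genes or with more than 30% of their UMIs on the 77 unplaced scaffold features were removed, and doublets were scored with Scrublet in scanpy 1.11.5 and removed at the percentages the study gives. The mitochondrial filter of the study was not repeated. The 3000 most variable genes, members excluded, gave 35 components, aligned with Harmony in numpy 2.4.6. The form of its penalty was set after first output had been seen. Cells were clustered in Seurat 5.3.0 at a resolution of 0.8. Clusters were named by markers that the study derived from these samples, which needed at least 3 detected markers.

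UMIs were summed per library, and per library and class with at least 10 cells, and tested with edgeR 4.0.16 in R 4.3.3 for genes with 10 counts in a sample. DESeq2 1.42.0 was an alternative. The procedure was tested on simulated data. Exact permutation tests used scipy 1.17.1. Pooled ratios have 95% intervals for counting error only. The named genes are the members of the sweep list, the 10 of highest mean CPM, the members called between populations, the 5 adjacent pairs of highest residual correlation over the invasive libraries, the 2 members of largest change per class and the 5 of lowest interaction p; others were named after their values were seen. For the pairs, those measurable in all 3 invasive libraries were taken.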

Additional observations from a re-analysis of the deposited data

Results flagged for a closer look

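The section of a bud of NAint61 entered no comparison above. It is 1 section with no replicate, from another assay, and held 43513200 counts. Of these, 19360 fell on the remaining B chromosome genes, a summed level of 445 CPM, against 167 CPM in the cells of NAint61's single-cell library. The section had at least 1 count for 189 members, among them 98 of those with a UMI in NAint61. It was singled out because 59 of its members had no UMI in any of the 6 single-cell libraries.

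Of those 59 members, 12 had at least 10 counts, with PaChr24.176 at 135 and PaChr24.59 at 128. PaChr24.176 opens the run of silent genes from 176 to 181. The most abundant member of the section was PaChr24.232 with 2537 counts, as in the single cells. PaChr24.15 had 1278 counts there against 123 UMIs in NAint61. Other members went the other way. PaChr24.14, its neighbour, had 172 counts against 1083 UMIs, PaChr24.127 had 7 against 620, and PaChr24.116 had 7 against 313. The 2 assays were not tested against each other.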

How the results depend on the processing

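Leaving out each library in turn, the ratio of summed CPM ranged from 3.996 to 5.95 and edgeR called 0 members between populations in the whole shoot, in every class and for the interaction. The number of calls of a member in a class against the other classes, 42 in all, ranged from 27 to 46, with 27 without NAint61. In the whole shoot, DESeq2 called 33 members and edgeR with median UMIs per cell as covariate called 20, where it called 7.08% of all genes higher; the cause was not tested. The other alternatives of this comparison gave 0 calls. Adding the replicate number as a block gave 0 calls between populations as well. Libraries of the same number deviated together with correlations of 0.062, 0.54 and 0.65, not all over 0.1, so the numbers were not taken to pair the libraries. The libraries of the pairs at 0.54 and 0.65 also share a batch label, and those of the other pair do not. Among the calls in a class, 1 changed direction: PaChr24.165 in parenchyma-like cells went from 1.203 (edgeR adjusted p = 0.0016) to -0.37 (adjusted p = 0.63) without the shallow clusters. Low UMI counts limit most members, of which 166 had fewer than 10 in total. Leaving out shallow clusters, or each member in turn, was added after the data had been seen.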
